A study of Mus musculus with 6 samples.

Results

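A set of 10 genes of the Hippo pathway was followed in mouse colorectal cancer organoids under chemotherapy. They are the kinase genes Stk3, Stk4, Lats1 and Lats2, the scaffold gene Sav1, the upstream activator Nf2, the angiomotin genes Amot, Amotl1 and Amotl2, and the phosphatase gene Ptpn14. They were taken by name, and all 10 of them were among the 24190 genes of the count table and among the 14692 genes that passed the expression filter. The organoids were MTO54, 1 mouse tumor organoid (MTO) line that was established from a tumor of a genetically engineered mouse, and both groups carried its engineered alleles. Single cells were grown in basement membrane extract, and 2 days after seeding the medium was changed for 2 days. The 3 Folfiri samples received 5FU, an antimetabolite, at 50 μg/μl as the labels write the unit, together with SN38, the active form of irinotecan and a topoisomerase I inhibitor, at 100 nM, and the 3 control samples received complete stem cell medium. The paper describes 3 biological replicates per condition for its Folfiri experiment. The labels do not say whether replicates came from separate cultures, so the p values measure the spread between these samples.

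In the Hippo pathway, the kinases MST1 and MST2 (encoded by Stk4 and Stk3), held by the scaffold protein SAV1, activate the kinases LATS1 and LATS2. These phosphorylate the coactivators YAP and TAZ, which are then kept out of the nucleus or degraded. The product of Nf2, Merlin, recruits the kinases at the membrane, while angiomotins and PTPN14 bind YAP and hold it in the cytoplasm. In the nucleus YAP and TAZ act through TEAD factors, and some of their target genes encode inhibitors of YAP itself, so the pathway contains negative feedback. Lats2, Amotl2 and Ptpn14 are in the YAP-22 target signature, and in the intestine YAP is known for its part in regeneration after injury.

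Total counts per sample ranged from 22103591 to 30098210. Levels are given as CPM, read counts divided by the library size as TMM scales it, or as RPKM, the same per kb of exon, where genes are compared with each other. Changes are log2 fold changes of Folfiri against control from edgeR's quasi-likelihood test, and a gene was called at an adjusted p under 0.05. In these data 79.1% of all tested genes were called, 40.3% higher and 38.8% lower, and the median change over all of them was 0.02 on the log2 scale. With scaling by total counts only that median was 0.30 and 63.3% of the calls were higher genes, against 51.0% with TMM, so the direction of small changes rests on the scaling. Control replicate 1 stood apart from the other control samples (chi-square per degree of freedom of 22.4 and 23.7, against 3.84 between the other two), and Folfiri replicate 3 stood apart less (11.9 and 12.3, against 3.55). All 8 epithelial markers were expressed, with a summed level of 5980 to 6950 CPM in controls and 4820 to 4990 CPM after Folfiri, 1 marker being higher and 5 lower. The 7 fibroblast markers summed to 1.08 to 1.44 CPM in controls and 2.00 to 2.41 CPM after Folfiri, with 2 markers higher (Dcn and Pdgfra), 1 lower (Col1a1), Lum not listed and Col3a1 and Thy1 at 0 in controls. The 8 immune markers summed to 21.4 to 26.2 and 21.6 to 22.6 CPM, nearly all of it Cd68, with 1 marker higher (Ptprc, 0.396 to 1.06 CPM), Cd3e not listed and Tyrobp at 0 after Folfiri. The 5 endothelial markers summed to 79.6 to 133 and 69.1 to 79.4 CPM, most of it Cdh5, with 1 marker lower (Vwf), Kdr at 0 in controls and Pecam1 under 0.5 CPM. The part of other cells in the results was not tested, and in RNA of whole cultures fewer cells of a type and less RNA per cell cannot be told apart.

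Of the 10 genes, 7 were higher and 1 was lower after Folfiri, against a background of 40.3% and 38.8% in each direction. Amotl2 rose 25.1-fold and Lats2 2.76-fold, Ptpn14 and Stk4 rose 1.80-fold and 1.78-fold, and Amotl1, Lats1 and Sav1 rose by between 1.25-fold and 1.35-fold, the calls of Lats1 and Sav1 being lost with a correction for the genomic span of genes. Stk3 was the gene that fell, to 0.507 of its control level, a log2 fold change of -0.98 that was -0.43 with that correction, which takes out the trend of fold changes with span. Nf2 (log2 fold change 0.38) and Amot (-0.01) were not called. In 6 of the 10 genes every treated sample lay above every control and in 1 below, where 41.6% and 39.9% of all tested genes, or 81.4% together, showed such separation. A rise that was called and was at least 1 on the log2 scale was seen in 2 of the 10 genes and in 19.5% of all tested genes. The median log2 fold change of the 10 genes was 0.42, against 0.02 for all tested genes. Over the 14 alternatives the count of higher genes ran from 6, with the span correction, to 9, with total counts only, and 1 gene was lower in each. It was 8 higher without control replicate 1 and 7 without Folfiri replicate 3.

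**Figure D1:**
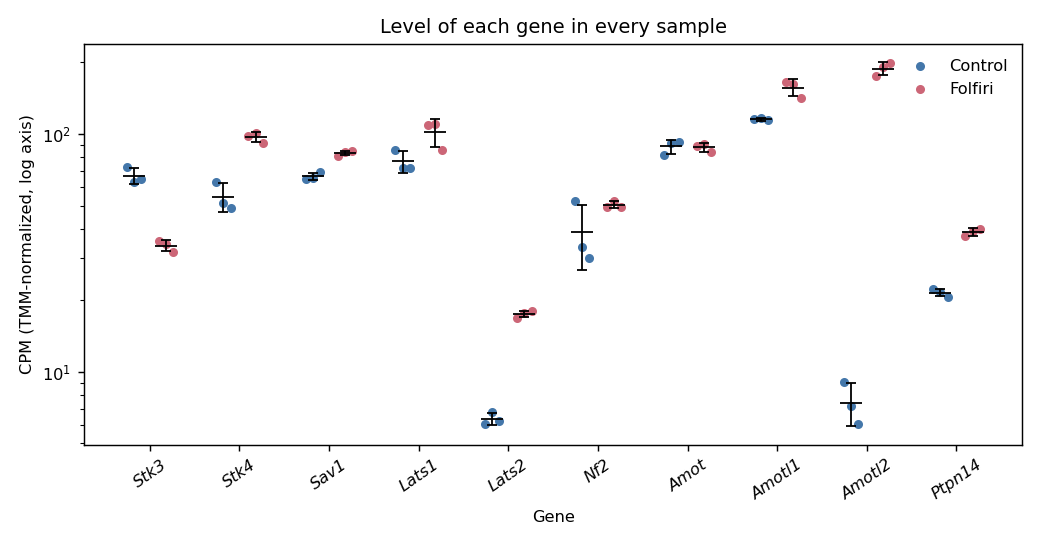
Level of each gene in every sample, in TMM-normalized CPM on a log axis, with control samples in blue and Folfiri samples in red, each point being 1 sample and the black marks the mean and SD (n = 3 per group). Amotl2 lies between 6.02 and 9.04 CPM in controls and between 175 and 198 CPM after Folfiri, and Stk3 is the gene whose Folfiri samples all lie below its controls.

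To show what the start sites of these genes hold, promoter windows were read from RefSeq, which had entries for 9 of the 10 genes, Stk3 being the one without. A window runs from 250 bases before to 50 bases after a transcription start on GRCm38. In Amotl1, Amot, Lats2, Stk4 and Amotl2 these starts lie inside the gene bounds given below. Starts at the outer ends of those genes were therefore not searched. The core TEAD motif GGAATG, searched on both strands (as CATTCC on the other), was found in 4 of the 11 windows of these 9 genes, those of Amotl2, Lats2 (1 of its windows), Ptpn14 and Sav1. Of all 32851 windows in the table, 14.7% hold it. The genes with a match, Amotl2, Lats2, Ptpn14 and Sav1, had log2 fold changes of 4.65, 1.46, 0.85 and 0.33. Sav1 was at 0.03 with the correction for genomic span. Of the genes whose windows hold no match, Stk4 was at 0.83, apart from Ptpn14 by less than their SE. Amotl1, Lats1, Nf2 and Amot, also without a match, were at 0.44, 0.40, 0.38 and -0.01. Whether the motif bears on these changes was not tested. The 4 windows are printed with the motif in capitals. They are chr9:102717554-102717853 on the plus strand for Amotl2, chr14:57746074-57746373 on the minus strand for Lats2, chr1:189728018-189728317 on the plus strand for Ptpn14 and chr12:69986953-69987252 on the minus strand for Sav1.
Amotl2: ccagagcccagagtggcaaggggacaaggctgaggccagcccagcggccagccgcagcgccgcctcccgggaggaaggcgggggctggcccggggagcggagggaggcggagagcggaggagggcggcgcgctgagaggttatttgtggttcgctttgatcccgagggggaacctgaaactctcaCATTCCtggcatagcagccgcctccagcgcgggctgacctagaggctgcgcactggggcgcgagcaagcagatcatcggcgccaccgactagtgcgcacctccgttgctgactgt
Lats2: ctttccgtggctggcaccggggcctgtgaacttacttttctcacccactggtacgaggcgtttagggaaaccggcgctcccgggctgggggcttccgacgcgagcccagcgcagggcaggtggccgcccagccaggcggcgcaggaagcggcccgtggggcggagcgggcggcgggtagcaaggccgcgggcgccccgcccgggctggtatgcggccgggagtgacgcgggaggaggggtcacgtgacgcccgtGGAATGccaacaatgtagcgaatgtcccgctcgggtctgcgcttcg
Ptpn14: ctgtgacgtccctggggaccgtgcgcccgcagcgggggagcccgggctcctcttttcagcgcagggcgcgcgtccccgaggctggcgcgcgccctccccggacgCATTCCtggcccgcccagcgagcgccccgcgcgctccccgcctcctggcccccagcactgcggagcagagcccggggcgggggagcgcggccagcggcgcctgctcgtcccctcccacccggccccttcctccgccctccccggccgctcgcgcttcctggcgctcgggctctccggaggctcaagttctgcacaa
Sav1: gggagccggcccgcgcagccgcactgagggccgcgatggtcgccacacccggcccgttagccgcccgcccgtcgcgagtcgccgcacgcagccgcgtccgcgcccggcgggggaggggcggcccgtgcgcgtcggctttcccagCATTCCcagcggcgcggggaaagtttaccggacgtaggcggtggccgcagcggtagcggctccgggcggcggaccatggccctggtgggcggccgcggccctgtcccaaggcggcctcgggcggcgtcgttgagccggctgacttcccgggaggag
Counted from the start, with 1 for the first transcribed base, the motif begins at -65 in Amotl2, 5 in Lats2, -146 in Ptpn14 and -106 in Sav1. Lats2 has a second annotated start, whose window does not hold these letters, and neither do the windows of Lats1, Stk4, Nf2, Amot and Amotl1. The AP-1 motif TGANTCA, which reads the same on both strands, was in 0 of the 11 windows of the 9 genes and in 7.81% of all windows. A match describes the sequence and is not a measurement of binding.

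The MST kinases changed in opposite directions. Stk3 (ENSMUSG00000022329, chromosome 15 of GRCm38 from 34875496 to 35178921) encodes MST2. Its level was 72.7, 63.1 and 64.6 CPM in the controls (replicates 1, 2 and 3, the order kept throughout) and 35.5, 34.4 and 31.9 CPM in the treated samples, so that every treated sample lay below every control. The means were 66.8 ± 5.19 and 33.9 ± 1.82 CPM (SD, n = 3 each), and the log2 fold change was -0.98 with an SE of 0.08 (edgeR, adjusted p = 1.56e-06). With the span trend taken out it was -0.43 and was still called (edgeR, adjusted p = 6.80e-04). Stk4 (ENSMUSG00000018209, chromosome 2 from 164070322 to 164155524) encodes MST1, the other kinase of the pair. It was at 63.1, 51.3 and 48.8 CPM in the controls and at 98.2, 101 and 91.7 CPM after Folfiri, again without overlap but in the other direction. Its log2 fold change was 0.83 with an SE of 0.10 (edgeR, adjusted p = 1.84e-05).

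Per length, the pair summed to 20.2 ± 2.13 RPKM in controls and 22.1 ± 1.10 RPKM after Folfiri (SD, n = 3 each), and these totals overlapped between groups (exact permutation test, two-sided, p = 0.3). Stk3 contributed 54.2 ± 1.72% of the summed RPKM in controls and 25.1 ± 0.598% after Folfiri. Within each sample, the ratio of Stk4 to Stk3 per length was 0.905, 0.848 and 0.789 in control samples and 2.89, 3.08 and 3.0 after treatment. The groups did not overlap, and the log2 ratio differed by 1.82 (exact permutation test, two-sided, p = 0.1, which is the lowest p that 3 against 3 can give). This ratio is independent of the scaling between samples but not of the span correction, under which the log2 fold changes were -0.43 for Stk3 and 0.89 for Stk4, in place of -0.98 and 0.83. Over the 6 exact tests of ratios and family totals, the Benjamini-Hochberg adjusted p was 0.12 for each with p = 0.1 and 0.3 for the MST total.

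Sav1 (ENSMUSG00000021067, chromosome 12 from 69965012 to 69987002) encodes the scaffold protein that joins MST and LATS kinases. It was at 64.5, 65.4 and 69.0 CPM in the controls and at 81.1, 83.7 and 84.5 CPM after Folfiri. The groups did not overlap, and the log2 fold change was 0.33 with an SE of 0.07 (edgeR, adjusted p = 0.00107). This call was lost when the trend of the fold changes with genomic span was taken out, with a log2 fold change of 0.03 (edgeR, adjusted p = 0.652). Of its exonic bases, 25.4% are shared with Atl1 on the opposite strand, a gene with 14 to 29 counts in the controls and 60 to 83 counts after Folfiri, where Sav1 had 1342 to 2785 counts.

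Lats1 (ENSMUSG00000040021, chromosome 10 from 7681214 to 7716460) encodes one of the kinases that phosphorylate YAP. Its level was 86.0, 71.9 and 72.2 CPM in the controls and 109, 110 and 85.8 CPM with Folfiri. Folfiri replicate 3 lay just below control replicate 1, so the groups overlapped. The log2 fold change was 0.40 with an SE of 0.11 (edgeR, adjusted p = 0.00578), and it was 0.21 (edgeR, adjusted p = 0.0947) after the correction for genomic span, which ended the call.

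Lats2 (ENSMUSG00000021959, chromosome 14 from 57689662 to 57758388) encodes the other LATS kinase and is itself a YAP target. It rose from 6.05, 6.76 and 6.22 CPM in the controls to 16.9, 17.6 and 18 CPM after Folfiri. The lowest treated sample was well above the highest control, with means of 6.34 ± 0.370 and 17.5 ± 0.568 CPM (SD, n = 3 each). The log2 fold change was 1.46 with an SE of 0.10 (edgeR, adjusted p = 3.77e-07), larger than that of 88.5% of all tested genes.

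The LATS kinases together went from 11.4 ± 1.07 to 16.4 ± 1.78 RPKM (SD, n = 3 each), a ratio of 1.44 without overlap between groups (exact permutation test, two-sided, p = 0.1). Lats1 made up most of that sum in both groups, and the share of Lats2 was 8.03 ± 1.07% in controls and 15.5 ± 2.21% after Folfiri. The ratio of Lats2 to Lats1 was 0.0736, 0.0984 and 0.0901 in control samples and 0.163, 0.168 and 0.220 after treatment, a difference of 1.07 on the log2 scale (exact permutation test, two-sided, p = 0.1). Gm49361, a gene on the same strand that is not in the count table, shares 42.4% of the exonic bases of Lats2, and how reads on shared bases were counted is not given in the sources used here. Per kb of unshared exon, a choice made after seeing the data, Lats2 would stand at 1.58 RPKM in controls and 4.36 RPKM after Folfiri and make up 13.2% and 24.1% of the LATS sum.

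**Figure D2:**
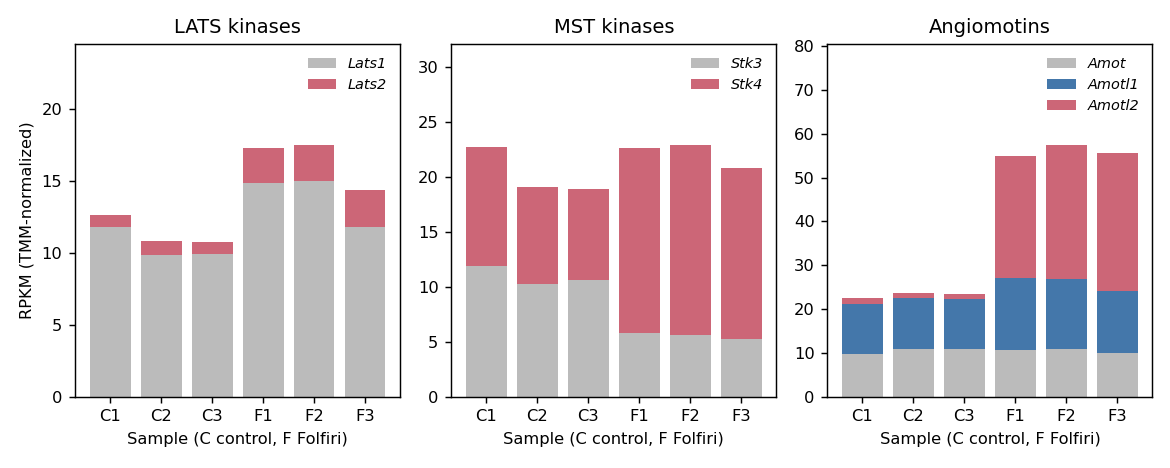
Summed levels per length of the LATS kinases, the MST kinases and the angiomotins in each control (C) and Folfiri (F) sample, in TMM-normalized RPKM, with each gene as a stacked segment. The MST sum stays between 18.9 and 22.9 RPKM while the Stk3 segment shrinks, and the angiomotin sum goes from at most 23.7 RPKM in controls to at least 54.9 RPKM after Folfiri.

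Nf2 (ENSMUSG00000009073, chromosome 11 from 4765845 to 4849536) encodes Merlin, a membrane-linked activator of the kinases. It was at 52.0, 33.5 and 30.2 CPM in the controls and at 49.5, 52.4 and 49.5 CPM after Folfiri. Control replicate 1, the sample that stood apart, was at the level of the treated samples, while the other controls were lower than all of them. The log2 fold change of 0.38 (SE 0.17, 95% interval 0.02 to 0.75) did not pass the threshold (edgeR, adjusted p = 0.0535). Without control replicate 1 it was 0.66 and was called (edgeR, adjusted p = 2.76e-06), and it was not called when any other sample was left out. It was also called, at 0.35 to 0.65, under all 8 other alternatives of scaling, filter, tool, replicate block and span correction, with adjusted p values from 0.00721 to just under 0.05 (edgeR or DESeq2), so that the missing call lies close to the threshold.

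The angiomotins gave the largest change and also a gene without a call. Amotl2 (ENSMUSG00000032531, chromosome 9 from 102716672 to 102733418) encodes an angiomotin-like protein that binds YAP and promotes its retention outside the nucleus, and it is a YAP target. It had 251, 180 and 117 counts in the controls and 5213, 5964 and 6533 counts after Folfiri. These were 9.04, 7.20 and 6.02 CPM and 175, 192 and 198 CPM, groups far apart relative to the spread within either. The means were 7.42 ± 1.52 and 189 ± 12.2 CPM (SD, n = 3 each), and the log2 fold change was 4.65 with an SE of 0.13 and a 95% interval of 4.36 to 4.94 (edgeR, adjusted p = 1.61e-09). In 99.3% of all tested genes the log2 fold change was no larger.

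Amotl1 (ENSMUSG00000013076, chromosome 9 from 14541966 to 14645056), another angiomotin-like gene, was at 115, 117 and 114 CPM in the controls and at 166, 162 and 142 CPM after Folfiri. All treated samples were above all controls, at a log2 fold change of 0.44 with an SE of 0.08 (edgeR, adjusted p = 3.18e-04). Amot (ENSMUSG00000041688, chromosome X from 145446425 to 145505181), which gave the family its name, was at 81.5, 91.9 and 92.3 CPM in the controls and at 89.1, 91.0 and 83.8 CPM after Folfiri. The groups overlapped, and its log2 fold change was -0.01 (95% interval -0.18 to 0.16, edgeR, adjusted p = 0.919). With scaling by total counts only it was 0.27 and was called (edgeR, adjusted p = 0.00395), close to the median of 0.30 that all tested genes had under that scaling.

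Summed over the family, angiomotin RNA went from 23.2 ± 0.584 to 56.0 ± 1.38 RPKM (SD, n = 3 each), a ratio of 2.41 without overlap (exact permutation test, two-sided, p = 0.1). Amotl2 made up 6.37, 4.83 and 4.10% of it in the controls and 50.6, 53.2 and 56.7% of it in the treated samples. It was thus the minor member in every control and held at least 50.6% of the family's RNA per length in every treated sample. The ratio of Amotl2 to Amot and Amotl1 together differed by 4.45 on the log2 scale (exact permutation test, two-sided, p = 0.1).

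Ptpn14 (ENSMUSG00000026604, chromosome 1 from 189728268 to 189876695) encodes a protein tyrosine phosphatase that binds YAP and is in the YAP-22 signature. It was at 22.2, 21.6 and 20.7 CPM in the controls and at 37.1, 39.1 and 39.8 CPM after Folfiri. The groups were separate, at a log2 fold change of 0.85 with an SE of 0.08 (edgeR, adjusted p = 2.53e-06).

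Ordered by level per length, Sav1 stood first in the controls at 12.6 ± 0.453 RPKM (SD, n = 3). Amotl1, Stk3, Amot, Lats1 and Stk4 followed between 11.5 and 9.29 RPKM, and each of these overlapped with the next one over the samples. Nf2 was lower, at 5.65 ± 1.72 RPKM, and the YAP target genes Ptpn14, Amotl2 and Lats2 were last, at 1.60, 1.18 and 0.910 RPKM, with Amotl2 and Lats2 overlapping. After Folfiri, Amotl2 stood first at 30.0 ± 1.94 RPKM (SD, n = 3), above Stk4, Sav1, Amotl1 and Lats1, which lay between 16.6 and 13.9 RPKM and overlapped with their neighbors. Amot, Nf2, Stk3, Ptpn14 and Lats2 followed without overlap between neighbors, Stk3 at 5.55 ± 0.298 RPKM and Ptpn14 and Lats2 last at 2.88 and 2.51 RPKM. Per kb of unshared exon this order changes in both groups. In controls Lats2, at 1.58 ± 0.0921 RPKM, would stand above Amotl2 and beside Ptpn14 (1.62 ± 0.0553 RPKM on the same basis; SD, n = 3 each), and Sav1 would still be first at 16.9 RPKM. After Folfiri Lats2 at 4.36 RPKM would stand above Ptpn14, and Sav1 at 21.2 RPKM above Stk4.

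Fold changes in these data varied with the genomic span of genes. When the tested genes were divided into deciles by span, 10 groups of equal size, the median log2 fold change was lowest at both ends, -0.64 in the shortest decile, up to 1.81 kb, and -0.42 in the longest, at or above 107 kb. It was highest, at 0.31, in the decile from 8.81 to 13.5 kb. None of the 10 genes was shorter than 16.7 kb, and over the deciles from 13.5 kb upward, which hold them, the median went from 0.28 down to -0.42. Stk3, at 303 kb the longest of the 10 genes, was lower than the median of its decile, and its log2 fold change was closer to 0 with the span trend taken out, as given above. Ptpn14, at 148 kb, lies in the same decile and rose, and its log2 fold change was 1.09 with that correction. Lats2, Stk4, Nf2 and Amotl1 lie in the decile from 60.3 to 107 kb, whose median was -0.05. Amotl2, at 16.7 kb the shortest of the 10, had a log2 fold change of 4.32 with the correction. Sav1 and Lats1, at 22 and 35.2 kb, had log2 fold changes of 0.33 and 0.40 where the medians of their deciles were 0.24 and 0.19.

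**Figure D3:**
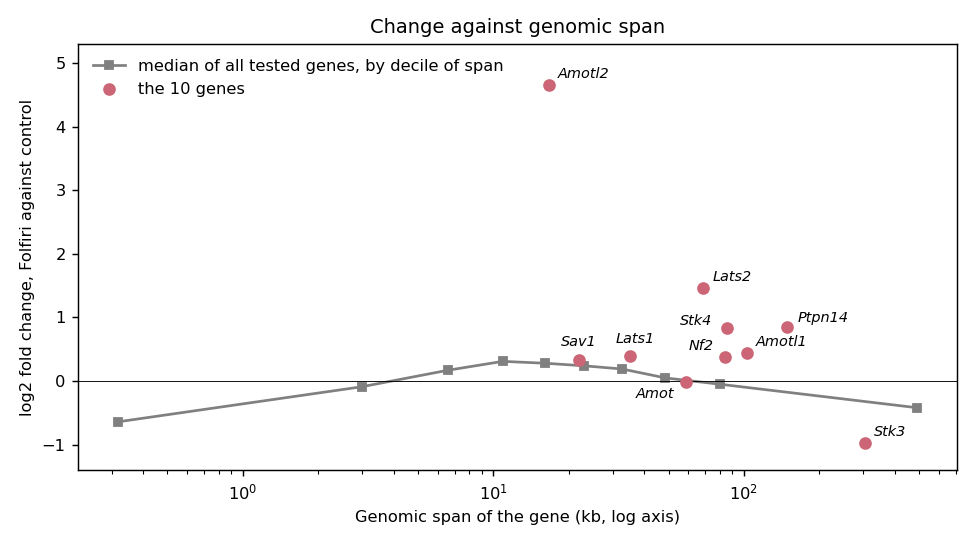
Log2 fold change of the 10 genes (red) against genomic span in kb on a log axis, with the median of all tested genes in each decile of span in grey, placed at the geometric middle of the decile. Amotl2 stands far above the grey line at 4.65, Ptpn14 lies above it at a span where the median is -0.42, and Stk3 lies below it at -0.98.

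**Figure D4:**
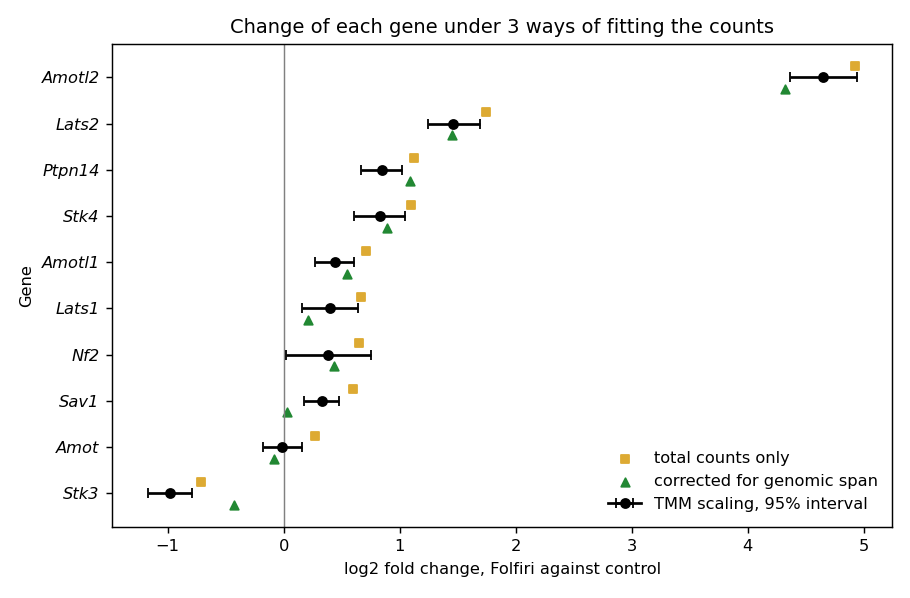
Log2 fold change of each gene, Folfiri against control, with its 95% interval from the edgeR fit under TMM (black), and the values with total counts only (yellow squares) and with the correction for genomic span (green triangles). The direction is the same under all 3 for every gene but Amot, which is at -0.01, 0.27 and -0.08, and Sav1 moves to 0.03 with the span correction.

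The rest of the pathway was read from 6 lists with 71 genes, of which 69 were tested, Fat4 and Dchs1 having too few counts. Of these 22 were higher and 27 lower, 71.0% being called where 79.1% of all tested genes were, and their median log2 fold change was -0.09. This balance rests on the scaling, since with total counts only 35 were higher and 19 lower, with a median of 0.18. For these genes overlaps with other genes were not examined.

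Among 18 upstream kinases and adaptors, 10 were higher and 4 lower. With total counts only 14 were higher and 2 lower, and without control replicate 3 also 2 were lower, Map4k1 and Mink1 losing their calls in both. Ptpn21, the paralog of Ptpn14, rose by a log2 fold change of 1.51 (edgeR, adjusted p = 1.15e-07), from 25 to 71.4 CPM. Wwc2, a relative of the adaptor Kibra, and Frmd6, a FERM-domain protein acting beside Merlin, rose by 0.91 and 0.77. Tnik, a MAP4K-family kinase, fell at -1.48, as did Stk38l, which encodes a kinase related to LATS, at -0.90 and Map4k1 at -0.40, the last of which was not called in 6 of 14 alternatives (-0.12, edgeR, adjusted p = 0.496 with total counts only). Mob1a and Mob1b, named after their values were seen, encode the activating partners of LATS kinases and were at 0.71 and 0.42. Of 6 RASSF genes, whose family includes binding partners of the MST kinases, 1 was higher (Rassf5, 1.11) and 3 lower (Rassf4 and Rassf2, both -1.50, and Rassf6, -0.93), with Rassf2 and Rassf5 below 2 CPM in both groups. Of the 6 RASSF genes, 2 were higher with total counts only, with upper quartile scaling, with the replicate block and without control replicate 3.

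Among 12 inhibitors of LATS and members of STRIPAK, the phosphatase complex that switches MST kinases off, 5 were higher and 4 lower. The lower count was 7 with the span correction and 6 without control replicate 1. Ajuba and Limd1, which encode LIM-domain proteins that bind and inhibit LATS kinases, were at 1.59 (from 37.6 to 113 CPM, edgeR, adjusted p = 1.89e-08) and 1.0. Wtip, a related gene named after its value was seen, was at 0.73. The STRIPAK genes were divided, with Mob4 at 0.86, Ppp2r1a at -0.51 and Slmap at -0.49.

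Of the 13 polarity and junction genes tested, 3 were higher and 7 lower, against 6 and 5 with total counts only and 5 and 5 with the correction for genomic span. Fat1, an atypical cadherin, rose by a log2 fold change of 1.46, and Tjp1 and Scrib by 0.50 and 0.37, the call of Scrib being lost with the span correction. Magi1 had the lowest value at -1.69, and Crb3 and Mpp5, which encode parts of the apical Crumbs complex, were at -1.04 and -0.85. Both Magi1, at 608 kb, and Fat1, at 117 kb, lie in the longest decile of genes.

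Among 13 genes for turnover of pathway proteins, 2 were higher and 6 lower, against 5 and 5 with total counts only. The higher genes were Csnk1e at 0.44 and Csnk1d at 0.21, whose products phosphorylate YAP after LATS has done so, and Csnk1d was not called without a filter or with the span correction. The genes that fell most are E3 ligase genes, Siah2 at -1.61, Btrc at -0.95 and Wwp1 at -0.87. Of 7 nuclear effectors and cofactors, Tead4 was higher at 0.67, Tead1 (-0.87), Wwtr1, which encodes TAZ (-0.25), and Vgll4 (-0.18) were lower, and 3 were not called. Vgll4 lay close to the threshold (edgeR, adjusted p = 0.0418) and was not called in 10 of 14 alternatives, 5 of the 6 that left out a sample among them. Wwtr1 was not called with total counts only or with the span correction. Scaled by total counts alone, Wwtr1 and Vgll4 turned to 0.03 and 0.10 (edgeR, adjusted p = 0.677 and 0.142), and the balance of the list turned to 3 higher and 1 lower. The genes called higher there were Tead4 and, named after their values were seen, Yap1 at 0.34 and Tead3 at 0.47 (edgeR, adjusted p = 9.78e-04 and 0.00938).

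**Figure D5:**
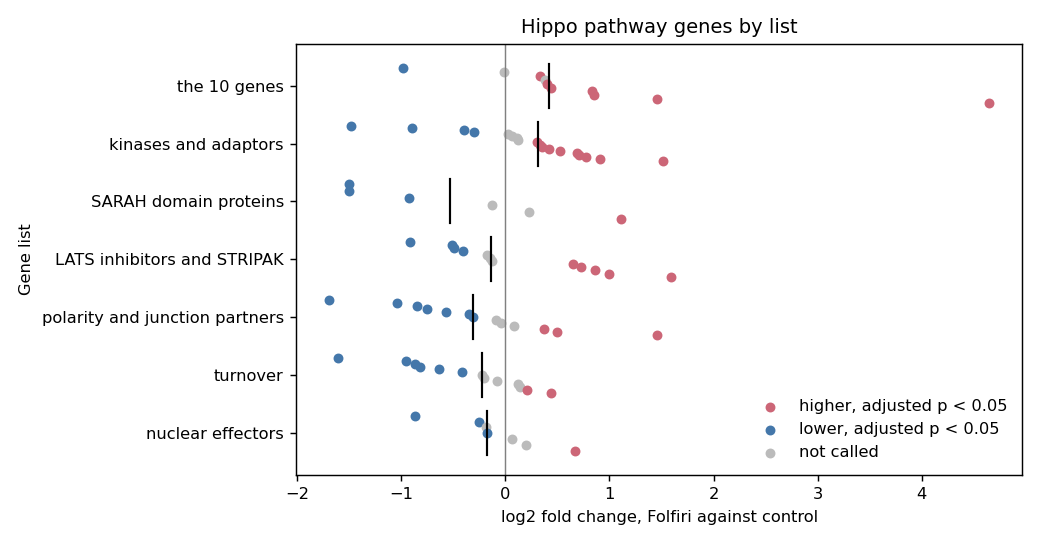
Log2 fold change of each tested gene, Folfiri against control, for the 10 genes and the 6 lists of other Hippo pathway genes, in red where called higher, blue where called lower and grey where not called (edgeR), with a black line at each list's median. Amotl2 lies apart from the other 9 genes and from the 69 other tested genes, of which the highest, Ajuba, is at 1.59.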

How the data were processed

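RNA of MTO54 organoids was sequenced in 3 control samples and 3 Folfiri samples. Reads had been mapped by the authors to GRCm38 with STAR (version 2.5.2) and GENCODE vM25 annotation, and the deposited values are raw counts for each gene from Rsubread. The strand setting and the handling of reads on several genes are not given in the sources used here, and the library kit named in the labels does not mark strand. Symbols, positions and exonic lengths came from GENCODE vM21 on the same build, and promoter windows from the RefSeq tables.

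The 10 genes, the lists of other pathway genes and the tests were chosen with earlier results of these data known. Counts were analysed in R 4.3.3 with edgeR 4.0.16: expression filter at defaults, TMM normalization, quasi-likelihood test, Benjamini-Hochberg adjustment over all tested genes, threshold 0.05. CPM uses the library sizes of that fit, and RPKM divides it by the union of annotated exons in kb. Ratios within a sample and family totals were tested by exact two-sided permutation. From each list up to 3 genes per direction with the largest change are named, among those past the threshold whose groups did not overlap. A gene that this rule names and some details of the genotype are not reported here. Alternatives were DESeq2 1.42.0, 3 other scalings, 2 other filters, the replicate number as a block, an offset for genomic span (loess, span 0.3), and each replicate left out in turn. The fit was tested on simulated data of 14465 genes, with 97 changed by 1 and 98 by 2 on the log2 scale, in either direction. Of these, 92 and 98 were called in the right direction, and 11 unchanged genes were called. With so few changed genes, the simulation does not test the scaling for data in which 79.1% of genes are called.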

Additional observations from a re-analysis of the deposited data

How the results depend on the processing

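With total counts only, Amot had a log2 fold change of 0.27 and Nf2 of 0.65. The calls of the lists under that scaling were 14 higher and 2 lower kinases and adaptors, 2 higher RASSF genes, 6 higher and 5 lower polarity genes, 5 higher and 5 lower turnover genes, and 3 higher and 1 lower nuclear effectors. With upper quartile scaling Amot was at 0.05, Nf2 at 0.43, and 2 RASSF genes were higher. With RLE scaling Nf2 was at 0.38, without a filter at 0.35 (with 1 higher turnover gene), with a mean of at least 1 CPM at 0.40 (Amot at 0.01) and with DESeq2 at 0.38, called in each. The correction for genomic span gave 0.21 for Lats1, 0.03 for Sav1 and 0.43 for Nf2, with 7 lower inhibitors and STRIPAK genes and 5 higher and 5 lower polarity genes. Among these 10 genes, Lats2, Stk3, Stk4, Amotl1, Amotl2 and Ptpn14 were called in their direction under every alternative run.

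Without one replicate in turn, log2 fold changes ran from -0.07 to 0.03 for Amot and from 0.23 to 0.66 for Nf2, the highest of Nf2 being without control replicate 1. The counts ranged from 2 to 4 for lower kinases and adaptors (2 without control replicate 3), from 1 to 2 for higher RASSF genes (2 without control replicate 3) and from 1 to 2 for higher nuclear effectors (2 without control replicate 1). The cause of these moves was not tested.

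Samples with the same replicate number did not deviate together (correlations of 0.04, -0.19 and 0.04 for numbers 1, 2 and 3), and control replicate 1 correlated best with Folfiri replicate 2, at 0.15. With the replicate number as a block, 11499 genes were called in place of 11623, Nf2 was called at 0.42 and 2 RASSF genes were higher. Low counts, 117 to 251 for Lats2 and Amotl2 in controls, limit the precision of those levels, and small lists change by a large share with 1 gene.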
